A study of Oryza sativa with 4 samples.

Results

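OsMADS14, OsMADS15, OsMADS18 and OsMADS20 are the APETALA1-like (AP1-like) MADS-box genes of rice, and their transcripts were compared between panicles mutant in the Polycomb gene EMF2B and wild-type (WT) panicles. They were taken by their locus identifiers, LOC_Os03g54160, LOC_Os07g01820, LOC_Os07g41370 and LOC_Os12g31748, which place OsMADS14 on chromosome 3, OsMADS15 and OsMADS18 on chromosome 7, and OsMADS20 on chromosome 12. All 4 have a row among the 45027 loci of the deposited count table, and a RefSeq gene table of assembly ASM3414082v1 lists each name on the same chromosome. The emf2b group carries the genotype label emf2b-1 and the other group the label WT. Both are of the cultivar Dongjin, were grown in the same greenhouse regime, and were sampled as young panicles of inflorescence stage 7, 0.3 to 1.5 cm long. Each group had 2 RNA-seq libraries, known by the barcodes GAGT and TTAG for emf2b, and ACCC and CGTA for WT. Nothing in the labels says whether the libraries of a group came from separate plants, so p-values measure only the spread between these libraries, which may be technical.

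MADS-box proteins of this kind bind DNA as dimers and assemble into larger complexes. The AP1-like genes of grasses belong to the FRUITFULL-like branch of the AP1 clade, whose wheat member VRN1 is known from vernalization. In rice, florigen proteins made in leaves travel to the shoot apex, join a 14-3-3 protein and a bZIP factor there, and switch on OsMADS14 and OsMADS15. OsMADS14, OsMADS15 and OsMADS18 then act together with the SEPALLATA-like gene OsMADS34 to turn the vegetative apex into an inflorescence meristem. EMF2B encodes a subunit of Polycomb repressive complex 2, which places the repressive histone mark H3K27me3, and the series title ties it to meristem determinacy and organ specification in the flower.

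The libraries held 12932305 and 16926873 counted reads in emf2b, and 25382519 and 32087683 in WT. The locus listed as EMF2B, LOC_Os09g13630 on chromosome 9, had 128 and 201 reads in emf2b GAGT and TTAG, against 942 and 1244 in WT ACCC and CGTA. Relative to the library total, in counts per 1000000 reads (CPM), that is 9.90 and 11.9 CPM in emf2b, against 37.1 and 38.8 CPM in WT, and the locus fell in emf2b (log2 fold change -1.84, SE 0.21; adjusted p = 0.00805 by the quasi-likelihood test of edgeR with Benjamini-Hochberg adjustment). It was still read in both mutant libraries. The summed level of 5 young-panicle marker loci overlapped between the groups, at 82.0 and 111 CPM in emf2b and 114 and 99.0 CPM in WT. Of these, OSH1 and OSH15, class I KNOX genes of the meristem, were read in every library and made up most of the sum. The spikelet gene FZP had 0 or 1 read in each. The weaker markers LAX1 and LOC_Os10g33780 were highest in emf2b TTAG. LAX1 had 0.155 and 1.06 CPM in emf2b GAGT and TTAG, against 0.197 and 0.187 CPM in WT ACCC and CGTA. LOC_Os10g33780 had 0.387 and 2.19 CPM in emf2b, against 0.118 and 0.187 CPM in WT. The 5 leaf markers summed to 26.0 and 62.2 CPM in emf2b and 29.6 and 19.3 CPM in WT, and the 4 anther markers to 4.25 and 10.5 CPM in emf2b and 2.64 and 2.46 CPM in WT. The emf2b library TTAG was the highest for both sums, through CAB1R among the leaf markers (46.2 CPM in TTAG) and EAT1 among the anther markers (7.68 CPM in TTAG). Other markers went the other way: the leaf marker LOC_Os12g17600 was lowest in TTAG at 1.83 CPM, and the anther marker UDT1 had 0.155 and 0.414 CPM in emf2b, below 0.867 and 0.810 CPM in WT. Both emf2b libraries lay above both WT libraries for the anther sum and EAT1, as for 32.5% of all tested loci. The same held for the anther marker TIP2, at 2.165 and 2.36 CPM in emf2b, against 0.315 and 1.06 CPM in WT. It also held for the leaf marker RCA, at 1.16 and 0.591 CPM in emf2b, against 0.0394 and 0.281 CPM in WT. The part of these markers in the results was not tested. In bulk tissue, fewer cells of a type and less RNA per cell cannot be told apart.

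None of the 3 AP1-like genes with enough reads for the test was called different in emf2b. Their log2 fold changes (emf2b over WT) were 0.54 for OsMADS14, 0.27 for OsMADS15 and 0.01 for OsMADS18, and OsMADS20 was close to the limit of detection. Across the whole table, 3017 of 22615 tested loci were called at an adjusted p of at most 0.05, or 13.3%, with 11.5% higher and 1.86% lower in emf2b. A count of 0 among 3 genes is near that background. At an unadjusted p of at most 0.05, OsMADS14 was the only member higher, and 19.6% of all tested loci were higher by that rule; DESeq2 also called 0 of the 4 genes, against 13.3% of the 26699 loci to which it gave an adjusted p. The median log2 fold change of the 3 tested members was 0.27, against 0.01 over all tested loci.

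OsMADS14, also known as RAP1B, promotes the change from vegetative to reproductive growth. It had 2635 and 2906 reads in emf2b GAGT and TTAG, against 3077 and 4236 in WT ACCC and CGTA. In CPM these are 203.8 and 171.7 in emf2b, against 121 and 132 in WT. Both emf2b libraries lay above both WT libraries, and the gap between the groups was wider than the spread within either. The emf2b libraries averaged 187.7 ± 22.7 CPM and the WT libraries 126.6 ± 7.63 CPM (SD over 2 libraries each). The fitted fold was 1.45 with a 95% interval of 1.07 to 1.96, or 0.54 ± 0.19 on the log2 scale (SE; edgeR unadjusted p = 0.0222, adjusted p = 0.107), so the difference did not pass the adjusted threshold. No alternative processing brought it past the threshold either: the adjusted p ran from 0.0885 with library totals as the only scaling to 0.382 without emf2b GAGT, and the log2 fold change stayed positive, from 0.34 to 0.69. Of all tested loci, 32.5% had both emf2b libraries above both WT libraries, and 24.6% had both below, so such separation is common in these data.

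OsMADS15, also known as RAP1A, is a target of the florigen complex and also acts in the identity of the palea, an outer organ of the spikelet. Its reads were counted on the gene model LOC_Os07g01820.5, whereas the other 3 members were counted on their first model. It stood at 98.1 and 127.7 CPM in emf2b GAGT and TTAG, against 96.3 and 86.5 CPM in WT ACCC and CGTA. The groups did not overlap, but the lower emf2b library and the higher WT library were almost level. The emf2b libraries averaged 112.9 ± 20.9 CPM and the WT libraries 91.4 ± 6.86 CPM (SD over 2 libraries each). The log2 fold change was 0.27 ± 0.19 (SE; edgeR adjusted p = 0.432), and its 95% interval in folds, 0.877 to 1.65, spans no change. When single libraries were left out it ran on the log2 scale from 0.10 without emf2b TTAG to 0.38 without emf2b GAGT.

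OsMADS18, widely expressed in the rice plant, is known to promote flowering when overexpressed. It stood at 78.2 and 74.8 CPM in emf2b GAGT and TTAG, against 69.6 and 79.4 CPM in WT ACCC and CGTA. Both emf2b values lay between the WT values. The emf2b average was 76.5 ± 2.39 CPM and the WT average 74.5 ± 6.93 CPM (SD over 2 libraries each). On the log2 scale the fitted difference was 0.01 ± 0.17 (SE; edgeR adjusted p = 0.99). The 95% interval of the fold ran from 0.756 to 1.33, so larger changes than these lie outside it. The sign of so small a difference was not stable, with log2 values from -0.12 to 0.08 across the alternatives. Of all tested loci, 0.871% had a smaller absolute log2 fold change, against 60.0% for OsMADS14 and 36.3% for OsMADS15. With an SE of 0.17, the rank of so small a value is not precise.

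OsMADS20, a further member of the same branch, had 3 and 10 reads in emf2b GAGT and TTAG, against 0 and 1 in WT ACCC and CGTA. These are 0.232 and 0.591 CPM in emf2b, against 0 and 0.0312 CPM in WT, where a count of 0 allows up to 0.118 CPM in WT ACCC (3 reads). With too few reads for the main test, it had a depth-adjusted ratio of 25.0 from 13 pooled reads in emf2b and 1 in WT, with an exact 95% interval of 3.76 to 1063 that covers counting error only. The gene was not called when loci with few reads were kept in edgeR (log2 fold change 4.06 ± 1.81 SE, adjusted p = 0.129) or by DESeq2 (4.48 ± 2.41 SE, adjusted p = 0.227). Such weak loci were often read more in emf2b: of 4885 loci with a single WT read, 13.7% had at least 13 reads in emf2b, with a median of 3 and a 95th percentile of 24 reads. These loci were picked by their low WT count, which by itself favours more reads in emf2b. Loci picked by a low emf2b count were not examined. The emf2b libraries also had fewer loci without any read, 20.9% and 8.70% of the table, against 29.7% and 32.0% in the WT libraries, despite fewer reads in all.

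**Figure D1:**
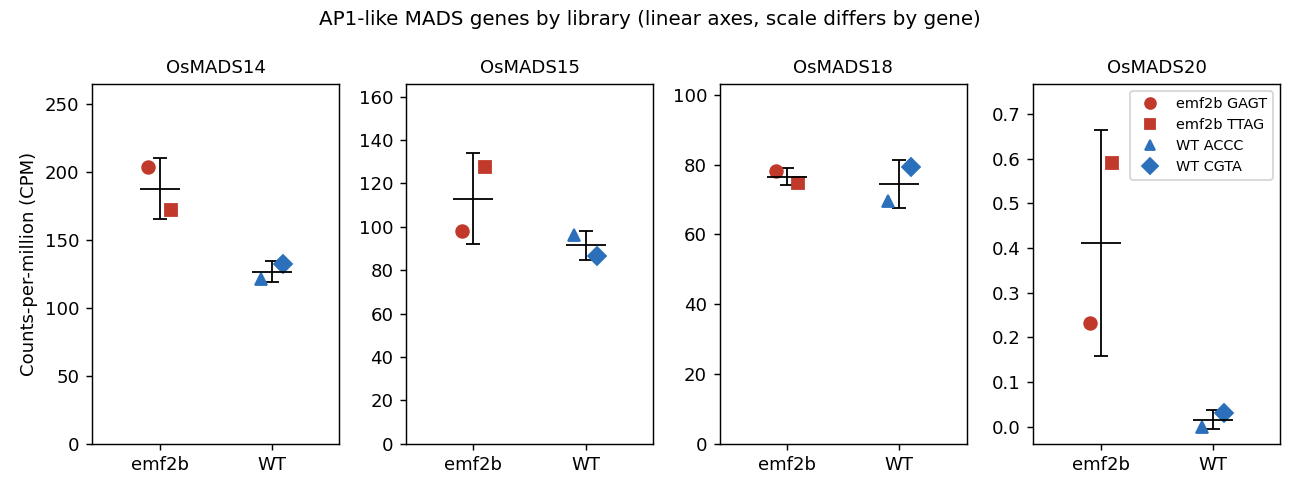
Counts per 1000000 reads (CPM, linear axis, own scale per gene) of the 4 AP1-like genes in each library, emf2b at left and WT at right; horizontal bars are group means and vertical bars ± SD (n = 2 each). OsMADS14 stands at 203.8 and 171.7 CPM in emf2b, above 121 and 132 CPM in WT, the OsMADS18 groups overlap, and OsMADS20 reaches at most 0.591 CPM.

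The libraries of a group differed beyond counting error for OsMADS14 and OsMADS15 in both groups and for OsMADS18 in WT, in different directions for different members. For OsMADS18 in emf2b and for the sparse OsMADS20 they did not. OsMADS14 was 1.19 times as high in emf2b GAGT as in emf2b TTAG (exact 95% interval 1.13 to 1.25), whereas OsMADS15 was 0.768 times as high (0.716 to 0.824) and OsMADS18 1.05 times (0.961 to 1.14). Between WT ACCC and WT CGTA the ratio was 0.918 for OsMADS14 (0.876 to 0.962), 1.11 for OsMADS15 (1.05 to 1.18) and 0.877 for OsMADS18 (0.824 to 0.932). In both groups, the library with more OsMADS14 thus had less OsMADS15. OsMADS14 and OsMADS15 are close relatives, and no source used here says how the counting treated reads that match both.

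**Figure D2:**
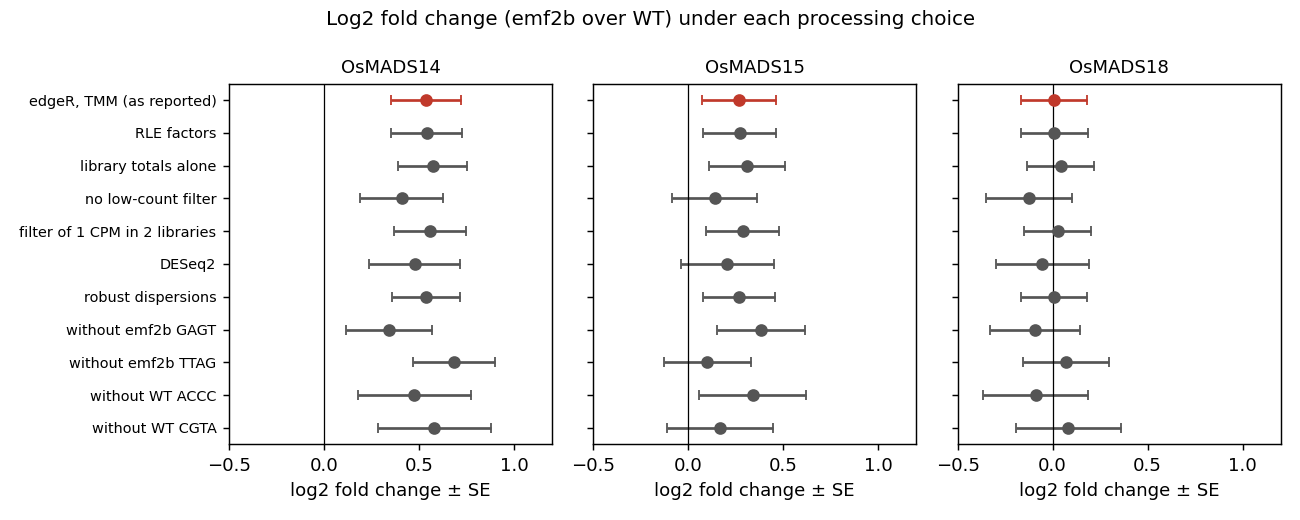
Log2 fold change (emf2b over WT) ± SE of the 3 tested AP1-like genes under the reported fit and 10 alternatives. The values run from 0.34 to 0.69 for OsMADS14, from 0.10 to 0.38 for OsMADS15 and from -0.12 to 0.08 for OsMADS18.

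The makeup of the AP1-like reads was compared next, since shares and ratios within a library do not depend on how libraries are scaled. The 4 genes together took 380.3 and 374.8 CPM in emf2b, against 287 and 298 CPM in WT. Shares of these reads are not corrected for gene length, so they are compared between libraries and not between genes. OsMADS14 made up 53.6% and 45.8% of the AP1-like reads in emf2b GAGT and TTAG, against 42.2% and 44.3% in WT ACCC and CGTA. OsMADS18 made up 20.6% and 19.96% in emf2b, with exact binomial 95% intervals of 19.4 to 21.7% and 19.0 to 21.0%, against 24.2% (23.3 to 25.2%) and 26.6% (25.8 to 27.5%) in WT. The OsMADS18 share was therefore lower in both emf2b libraries, with an average difference of -5.18 percentage points (20.3 ± 0.43% in emf2b against 25.4 ± 1.70% in WT, SD over 2 libraries each; two-sided exact permutation p = 0.3333, the smallest that 2 against 2 libraries allow). In CPM OsMADS18 itself was level, at 76.5 on average in emf2b and 74.5 in WT. The lower share thus went with the higher AP1-like sum and not with fewer OsMADS18 reads per total. OsMADS15 made up 25.8% and 34.1% in emf2b and 33.5% and 29.1% in WT, which overlap. OsMADS20 contributed at most 0.158% in any library.

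**Figure D3:**
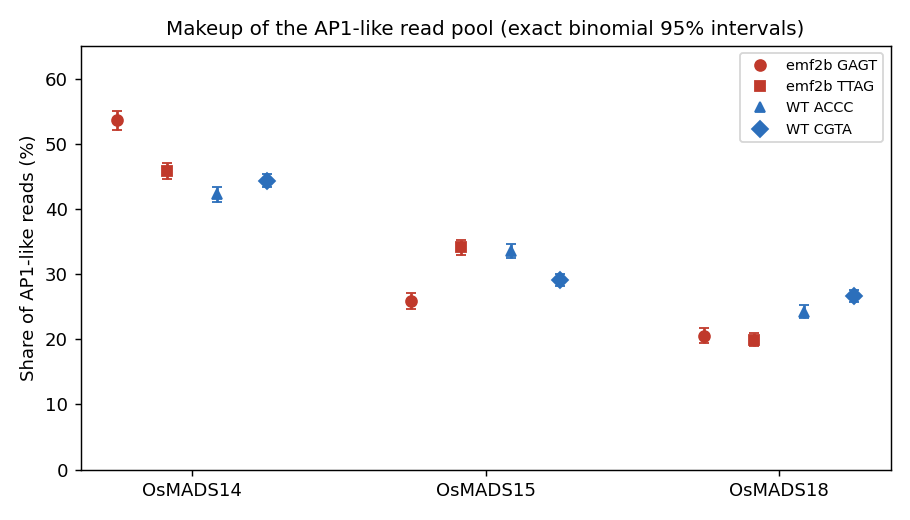
Share of the AP1-like reads (%) taken by OsMADS14, OsMADS15 and OsMADS18 in each library, with exact binomial 95% intervals that cover counting error only. The OsMADS18 share is 20.6% and 19.96% in emf2b, below 24.2% and 26.6% in WT, while the OsMADS15 shares overlap.

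Read ratios between members put the same reads in a form free of the total, so they are no independent support for the shares. There were 2.61 and 2.30 OsMADS14 reads per OsMADS18 read in emf2b GAGT and TTAG, against 1.74 and 1.66 in WT ACCC and CGTA. The emf2b ratio was 1.44 times the WT ratio, a log2 difference of 0.52 (exact permutation p = 0.3333, the smallest possible), and it ran from 0.43 to 0.62 with 1 library left out. The ratio of OsMADS14 to OsMADS15 was 2.08 and 1.34 in emf2b, against 1.26 and 1.53 in WT, so the groups overlapped (log2 difference 0.27, exact permutation p = 0.667). That difference became -0.04 without emf2b GAGT. The ratio of OsMADS15 to OsMADS18 overlapped too, at 1.26 and 1.71 in emf2b and 1.38 and 1.09 in WT (log2 difference 0.25, exact permutation p = 0.667). Of the 3 pairs, the OsMADS14 to OsMADS15 ratio was the planned one and the other two were added after the data were seen.

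Upstream of the AP1-like genes, the florigen list held the FT-like florigen Hd3a, the 14-3-3 gene GF14c and 5 loci entered as a bZIP partner and TFL1-like antagonists, which the RefSeq table does not name on their chromosome and which are given by identifier. Hd3a had 1 read in emf2b TTAG and 0 in the other 3 libraries. Of the 5 members tested, 1 rose and 0 fell, with 4 not called, against 11.5% of all loci higher. The riser was LOC_Os04g33570 on chromosome 4, with 16.3 and 16.1 CPM in emf2b, against 1.66 and 2.03 CPM in WT. Its log2 fold change was 3.10 ± 0.28 (SE; edgeR adjusted p = 0.00570). It was called under all 10 alternatives, with log2 fold changes from 2.96 to 3.23. The largest difference among the uncalled members was that of LOC_Os11g05470, at 0.851 and 0.532 CPM in emf2b and 0.788 and 1.31 CPM in WT (-0.65 ± 0.65 SE, edgeR adjusted p = 0.582). The median of the 5 was -0.10.

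Among 7 other upstream regulators, 6 were tested, 0 rose and 0 fell, against 13.3% of all loci called in either direction. At an unadjusted p of at most 0.05, edgeR had 1 of the 6, RFL, higher and 1, OsMADS50, lower, against 19.6% of all tested loci higher and 7.98% lower by that rule. DESeq2 called 1 of the 7, OsMADS50, lower, with 700 of its 26699 loci called lower. So did edgeR when loci with few reads were kept (-1.17, adjusted p = 0.000106), with 1590 of 45027 loci called lower. OsMADS50, a SOC1-like promoter of flowering, showed the largest difference, at 13.0 and 28.1 CPM in emf2b, against 37.4 and 44.9 CPM in WT (-1.04 ± 0.34 SE on the log2 scale, edgeR adjusted p = 0.0877). It was called lower without emf2b TTAG (-1.66, edgeR adjusted p = 0.00913), but stood at -0.65 without emf2b GAGT (edgeR adjusted p = 0.133). RFL, the rice LEAFY homolog of panicle branching, was at 40.4 and 68.2 CPM in emf2b and 37.9 and 26.2 CPM in WT (0.72 ± 0.30 SE, edgeR adjusted p = 0.167). It was called under 1 of 10 alternatives, without emf2b GAGT (0.99, edgeR adjusted p = 0.0373), and was at 0.33 without emf2b TTAG (edgeR adjusted p = 0.547) and 0.45 without WT CGTA (edgeR adjusted p = 0.562). The median of the 6 was 0.19.

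Of the SVP-like MADS genes, known as repressors of floral meristem identity, 2 of 3 rose, against 11.5% of all loci, and the median log2 fold change of the 3 was 1.71. OsMADS22 had a log2 fold change of 1.71 ± 0.32 and OsMADS47 of 2.91 ± 0.70 (SE; edgeR adjusted p = 0.0224 and 0.0368), while OsMADS55 had -1.11 ± 0.35 (edgeR adjusted p = 0.081). OsMADS22 stood at 40.4 and 24.0 CPM in emf2b GAGT and TTAG, against 7.96 and 11.3 CPM in WT ACCC and CGTA. OsMADS47 was weakly read, with 17 and 48 reads in emf2b GAGT and TTAG, against 8 and 7 in WT ACCC and CGTA. OsMADS55 was called lower under 1 of 10 alternatives, when loci with few reads were kept in edgeR (-1.24, adjusted p = 0.0266). That setting called 1590 of 45027 loci lower. Without either WT library no SVP-like call was left, and without emf2b TTAG that of OsMADS47 ended, with edgeR adjusted p-values from 0.0804 to 0.2302. Within libraries, there were 8.55 and 12.7 AP1-like reads per SVP-like read in emf2b GAGT and TTAG, against 19.7 and 18.0 in WT ACCC and CGTA. The emf2b ratio was 0.553 times the WT ratio, and the groups did not overlap (log2 difference -0.85, exact permutation p = 0.3333, the smallest possible). That difference ran from -1.14 without emf2b TTAG to -0.57 without emf2b GAGT, and the SVP-like sum holds the 2 genes that rose. OsMADS22 made up most of that sum in every library, and the ratio was chosen after the data were seen.

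SEPALLATA-like and AGL6-clade proteins bind the AP1-like proteins in floral complexes, and 3 of these 7 genes fell in emf2b, against 1.86% of all loci, with 0 higher and a median of -0.42. They were the E-class genes OsMADS1 (log2 fold change -1.88 ± 0.27 SE, edgeR adjusted p = 0.0135) and OsMADS8 (-3.96 ± 0.43 SE, edgeR adjusted p = 0.00736), and the AGL6-clade gene OsMADS6 (-3.10 ± 0.27 SE, edgeR adjusted p = 0.00564). The OsMADS1 call ended without WT CGTA (-1.65, edgeR adjusted p = 0.0732). There were 1.47 and 1.80 AP1-like reads per SEPALLATA-like or AGL6-clade read in emf2b, against 0.870 and 0.600 in WT. The emf2b ratio was 2.26 times the WT ratio (log2 difference 1.17, from 0.91 to 1.44 with 1 library left out; exact permutation p = 0.3333, the smallest possible). The SEPALLATA-like and AGL6-clade sum holds the 3 genes that fell, and these sum ratios were chosen after the data were seen. OsMADS6 was the most read of the 3, at 18.1 and 22.6 CPM in emf2b GAGT and TTAG, against 129.6 and 211 CPM in WT ACCC and CGTA. The whole sum was 258 and 208 CPM in emf2b, against 330 and 497 CPM in WT.

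OsMADS34, the SEPALLATA-like gene that acts with the AP1-like genes in the inflorescence meristem, carries the next locus number after OsMADS14, and the RefSeq table lists the pair as neighbours on chromosome 3. It stood at 39.3 and 20.3 CPM in emf2b GAGT and TTAG, against 14.7 and 11.6 CPM in WT ACCC and CGTA. Like OsMADS14 and 32.5% of all tested loci, it was higher in both emf2b libraries than in either WT library. Like OsMADS14, it was highest in GAGT. Its log2 fold change was 1.15 ± 0.34 (SE; edgeR adjusted p = 0.0718), not past the test. It was called higher under 3 of 10 alternatives: by DESeq2 (1.09, adjusted p = 0.0289), when loci with few reads were kept in edgeR (1.03, adjusted p = 0.00228) and once emf2b TTAG was left out (1.57, edgeR adjusted p = 0.0101). Without emf2b GAGT the log2 fold change was 0.53 (edgeR adjusted p = 0.281), and the highest adjusted p, 0.312, came without WT CGTA. The read ratio of OsMADS14 to OsMADS34 was 5.19 and 8.45 in emf2b, against 8.25 and 11.4 in WT, which overlap (log2 difference -0.55, exact permutation p = 0.667).

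**Figure D4:**
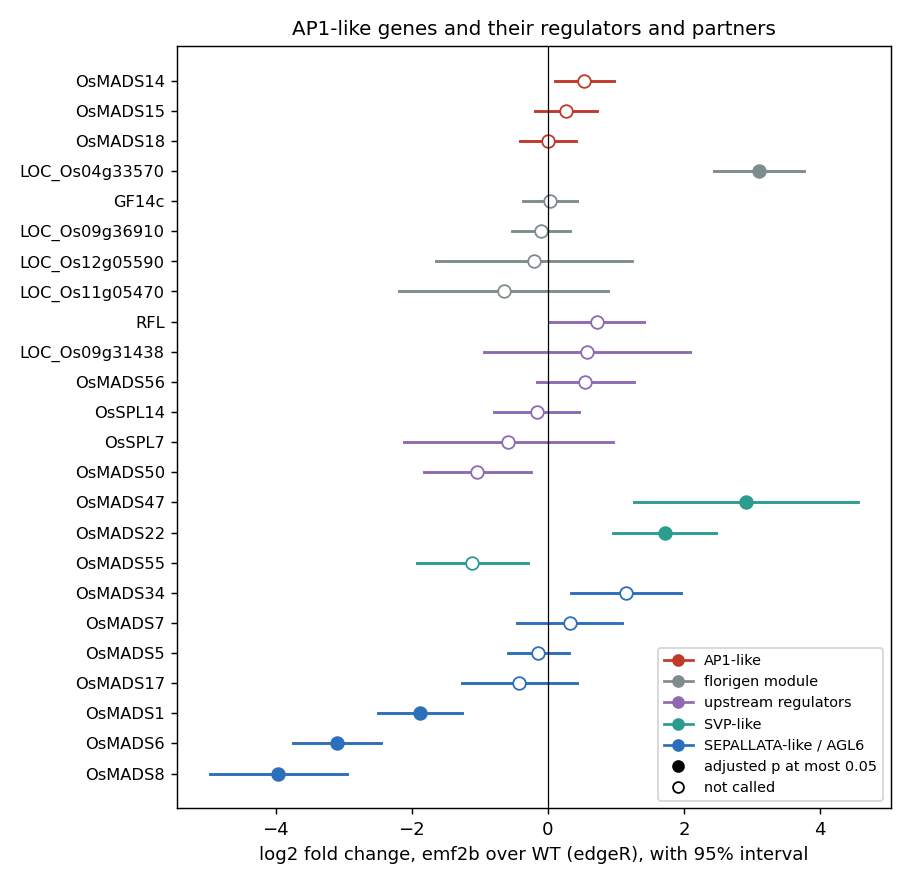
Log2 fold change (emf2b over WT) with 95% interval for the tested AP1-like genes and for the listed regulators and partners; filled points passed an edgeR adjusted p of 0.05. The AP1-like genes lie between 0.01 and 0.54, whereas OsMADS22, OsMADS47 and LOC_Os04g33570 lie at 1.71 or above and OsMADS1, OsMADS6 and OsMADS8 at -1.88 or below.

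**Figure D5:**
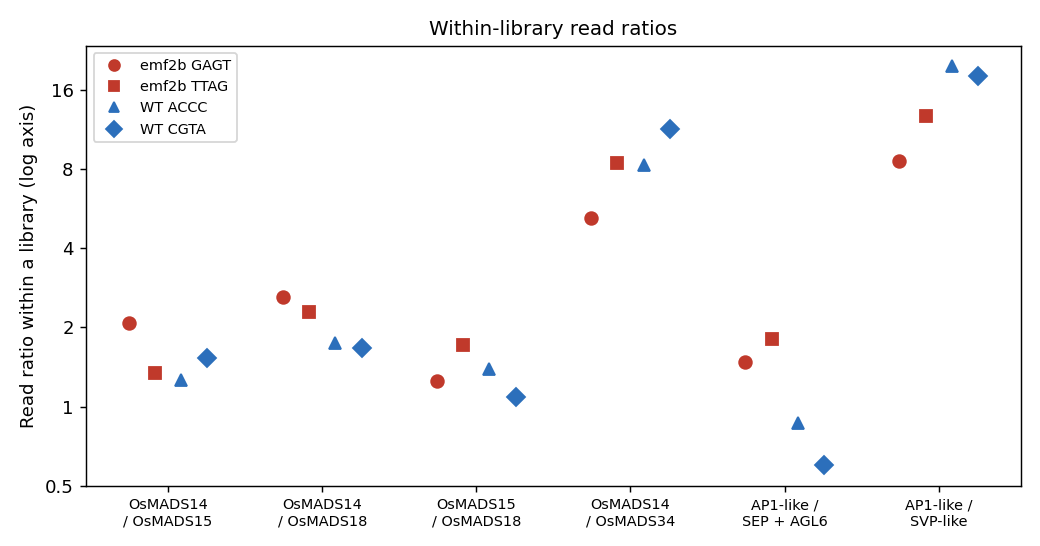
Read ratios within each library on a log axis, for pairs of AP1-like genes, for OsMADS14 against OsMADS34, and for the AP1-like sum against the SEPALLATA-like and AGL6-clade sum (SEP + AGL6) and the SVP-like sum. The ratio to SEP + AGL6 is 1.47 and 1.80 in emf2b against 0.870 and 0.600 in WT, and the ratio to the SVP-like sum is 8.55 and 12.7 in emf2b against 19.7 and 18.0 in WT.

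Patterns over the 4 libraries were compared by the root mean square difference of log2 CPM after each gene's own mean was subtracted, among 30 other tested loci of the MADS and regulator lists. OsMADS14 was nearest to OsMADS56, a SOC1-like gene (0.16), and to OsMADS18 (0.27). OsMADS15 was nearest to GF14c (0.18) and LOC_Os09g36910 (0.22). OsMADS18 was nearest to the same pair of loci, GF14c (0.07) and LOC_Os09g36910 (0.10). These distances are not rare: between 1.97% and 13.8% of all tested loci were at least as near to the member in question.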

How the data were processed

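RNA-seq read counts of 2 emf2b and 2 WT panicle libraries were used. Per the labels' protocols, DNase-treated total RNA was turned into cDNA (Ovation RNA-seq kit) and sequenced as single reads of 40 cycles; the same protocol text, which speaks of wild-type tissue, stands with all 4 samples, and groups follow the genotype label. The authors deposited whole-number counts per locus, on 1 gene model each, not normalized. The submitters' processing notes name TopHat2 2.0.5 and DESeq 1.10.1; no source used here gives the genome build, the annotation release, the counting tool or its strand setting, so no coordinates are printed and overlapping or antisense genes cannot be resolved. Columns carry a genotype and a barcode but no replicate number.

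Loci were filtered with filterByExpr (minimum count 10, minimum total 15; 22615 of 45027 kept), scaled by TMM (factors 0.973 to 1.03) and tested with the quasi-likelihood F test of edgeR 4.0.16 in R 4.3.3, two-sided, with group alone in the model and 2 residual degrees of freedom, with Benjamini-Hochberg adjustment over all tested loci and a threshold of 0.05. Each SE was derived from the fold change and its F statistic. CPM used library totals; 3 reads correspond to 0.0935 to 0.232 CPM. Exact permutation tests and exact intervals used scipy 1.17.1, and the exact intervals cover counting error only. DESeq2 1.42.0, other scalings and filters, robust dispersions and left-out libraries were tried. The fit was tested on simulated data.

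Gene names come from a hand-written list; of 51 symbols, 40 occur in a RefSeq table (assembly ASM3414082v1, not known to be the build of the counts) on the chromosome of their locus, and the rest, EMF2B excepted, are given by identifier. Named genes were the members, EMF2B, each called gene of the 4 regulator and partner lists with its largest uncalled difference, OsMADS34, and the 2 listed loci nearest in pattern to each tested member; RFL and Hd3a were named after their values were seen. The members and lists were chosen with earlier results of these data known.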

Additional observations from a re-analysis of the deposited data

How the results depend on the processing

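OsMADS14 and OsMADS15 kept a positive log2 fold change without a call, and EMF2B a call as lower, under all 10 alternatives. OsMADS18 turned negative when loci with few reads were kept (-0.12) and with DESeq2 (-0.055), and ran from -0.092 to 0.083 with 1 library left out; the cause was not tested. The ratio of OsMADS14 to OsMADS15 (log2, emf2b minus WT) ran from -0.044 to 0.583 with 1 library left out. The OsMADS18 share stayed lower in emf2b, with differences of -6.38 to -3.98 percentage points, and the OsMADS20 ratio between 3.74 and 5.09 on the log2 scale; without WT CGTA it had no WT read and gave no value. Across all loci, 2596 higher and 421 lower calls became 4294 and 1590 without the low-count filter, and DESeq2 called 700 lower. With 1 library left out they ran from 252 to 2191 higher and from 37 to 471 lower, lowest without WT CGTA; these fits leave 1 group with a single library, assumed to vary like the other. The median log2 fold change of all fitted loci was 0.01 in the reported fit, 0.62 without the filter and 0.73 with DESeq2, both of which fit 45027 loci. No paired analysis was possible because the columns carry no replicate number. Among the members, depth limits OsMADS20 most, read at most 10 times in a library.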

Other observations

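The loci up to 2 places away by identifier, on each side of every member, were looked at after the data were seen. On the other side of OsMADS14 from OsMADS34, LOC_Os03g54150 stood at 231 and 209 CPM in emf2b GAGT and TTAG, against 197 and 216 CPM in WT ACCC and CGTA (log2 fold change 0.06 ± 0.18 SE, edgeR adjusted p = 0.877). Near OsMADS15, only LOC_Os07g01850 had enough reads for the test (-0.31 ± 0.19 SE, edgeR adjusted p = 0.362). Next to OsMADS18, LOC_Os07g41380 had 24.1 and 53.9 CPM in emf2b and 30.8 and 17.7 CPM in WT (0.64 ± 0.41 SE, edgeR adjusted p = 0.36). Beyond it, LOC_Os07g41410 was at 0.89 ± 0.32 (SE; edgeR adjusted p = 0.122). On the other side, LOC_Os07g41360 was at 0.14 ± 0.27 (SE; edgeR adjusted p = 0.78). Beside the weakly read OsMADS20, LOC_Os12g31729 had 0.309 and 1.65 CPM in emf2b and 0 and 0.156 CPM in WT, too few reads for the test. Beyond it, LOC_Os12g31710 had 0.773 and 3.96 CPM in emf2b and 0.197 and 0.0312 CPM in WT, and was called higher (4.35 ± 1.095 SE, edgeR adjusted p = 0.042). No other tested neighbour was called, and 11.5% of all tested loci were called higher. On the other side of OsMADS20, LOC_Os12g31770 had 1.78 and 1.30 CPM in emf2b and 1.97 and 1.71 CPM in WT (-0.30 ± 0.49 SE, edgeR adjusted p = 0.752). Beyond that, LOC_Os12g31780 was at -0.38 ± 0.18 (SE; edgeR adjusted p = 0.221).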
